A study of Platycodon grandiflorus with 6 samples.

Results

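Jasmonates are lipid hormones of plants, made from linolenic acid by the successive action of 13-lipoxygenase, allene oxide synthase and allene oxide cyclase in the plastid, followed by 12-oxophytodienoate (OPDA) reductase and β-oxidation in the peroxisome. Jasmonic acid joined to isoleucine by the synthetase JAR1 is bound by the F-box protein COI1 together with JAZ repressors, members of the TIFY family, which are then degraded so that transcription factors such as MYC2 are freed. The hormone is known for its part in wound and pathogen responses and, in many medicinal plants, in the making of specialised metabolites such as triterpenoid saponins.

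The genes of this pathway were taken from the assembled transcriptome of Platycodon grandiflorus, the balloon flower, by the name of each unigene's best SwissProt match. The name had to contain lipoxygenase, allene oxide, 12-oxophytodienoate reductase, TIFY, coronatine-insensitive, jasmonate, jasmonic acid-amido or jasmonoyl. Of 152777 unigenes, 197 had such a name, 15 of these were left out because their best match in the NR database was to peanut (Arachis), and 182 remained. They fell into 21 clusters, groups of contigs that the assembly joined under 1 CL number, and 36 single unigenes, together 57 of 94586 clusters and single unigenes. A unigene is a contig of the assembly and not a locus of a genome, so no chromosome position applies. The members ran from 209 to 4854 bp, with a median of 2042.5 bp. They were 61 unigenes named 9S-lipoxygenase, 8 named 13S-lipoxygenase, 4 lipoxygenases of no stated position, 5 allene oxide synthases, 12 allene oxide cyclases, 27 OPDA reductases, 5 synthetases of jasmonoyl amino acids, 2 jasmonate methyltransferases, 8 COI1 receptors, 40 TIFY proteins of the kinds that, by name, are JAZ repressors in Arabidopsis, and 10 of the TIFY 4 kind, which are the PEAPOD growth regulators there. No member was named as OPDA reductase 3, the enzyme of jasmonate synthesis in Arabidopsis.

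The study compared 3 libraries of leaves, taken from the original plants, with 3 libraries of callus, a mass of undifferentiated dividing cells. It had been induced from stem pieces with nodes on MS medium with 1 mg/L of the auxin NAA and 0.5 mg/L of the cytokinin 6-BA, under 12 h of light a day for 50 days. The question put to the pathway here is which of its steps differed in transcript level between the tissues. Per the study's methods the plants grew in a greenhouse, and the callus grew in culture on medium with sucrose. Leaf and callus therefore differ in organ, explant, growth condition and hormone treatment at once, and the parts of these cannot be told apart. The study's methods describe the libraries of a tissue as independent biological replicates, and p-values measure the spread between them.

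The expected counts summed to between 17963458 and 19444638 in each library. Pearson's r of log2(FPKM + 1) over all unigenes was 0.742 to 0.803 between leaf libraries and 0.929 to 0.964 between callus libraries, a description in which all points share the assembly. The tissue labels were checked on marker genes. The summed level of 80 unigenes of chlorophyll a-b binding proteins was 17932 to 22975 FPKM in leaf and 7434 to 7879 FPKM in callus, so callus kept leaf-type transcripts at a lower level. For 9 unigenes of the Rubisco small subunit the summed level was 6269 to 7344 FPKM in leaf and 1468 to 1745 FPKM in callus. Expansins, 58 unigenes of wall-loosening proteins, summed to 44.0 to 66.8 FPKM in leaf and 565 to 933 FPKM in callus, and 54 unigenes of cyclins and B-type cyclin-dependent kinases summed to 105 to 142 FPKM in leaf and 214 to 272 FPKM in callus. In bulk tissue, fewer cells of a type and less RNA per cell cannot be told apart, and the part of the cell make-up in the results below was not tested. Unigenes with a peanut match took 1.17% of the counts of leaf replicate 1 and 0.178% to 0.347% of those of the other libraries. Of the members, 3 had soybean (Glycine max) as best NR match, a 13S-lipoxygenase, a 9S-lipoxygenase and an allene oxide cyclase, and their counts summed to 275 in leaf replicate 1, 11 in leaf replicate 2 and 0 in the other libraries.

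Of the 182 members, 11 had no count in any library and 127 passed the filter on low counts. The 55 that did not pass had a mean of at most 2.52 FPKM in either tissue. Calls rest on the quasi-likelihood test of edgeR, with p adjusted by Benjamini-Hochberg over every unigene tested and a threshold of 0.05. By this rule 21 members were higher and 14 lower in callus, 16.5% and 11.02% of those tested, against a background of 14.2% higher and 12.3% lower over all 66307 unigenes tested. These shares are near the background, so the list was not called more often than unigenes at large. The median log2 fold change, callus over leaf, was 0.50 over the members tested and -0.10 over all unigenes tested. In FPKM the 3 libraries of the tissues did not overlap for 41 members higher and 27 lower in callus, where 28.4% and 25.5% of all tested unigenes did so. The plot of fold change by role shows that members of 1 role often moved in both directions.

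The deposited counts divide reads among the contigs they match, so counts were also summed over all contigs of a CL number and tested in the same way. Of 57 clusters and single unigenes, 38 passed the filter. In callus 11 were higher and 3 lower, 28.9% and 7.89% of those tested, against a background of 22.0% higher and 20.8% lower over all 32898 tested, or 42.8% in both directions together. At the stricter threshold of 0.001 with a 2-fold change, edgeR called no unigene at all (0.0%). Of the member clusters 0 were higher and 1, CL3795, was lower, against 1.13% and 1.35% of all clusters. In this fit the share of member clusters called lower was under the background, and that called higher above it, a description of a list chosen with results known. DESeq2 called 14 member clusters higher and 8 lower, and 8920 and 8516 of all clusters, where edgeR called 7231 and 6852 of all. With DESeq2 the lower member clusters were thus 8 in place of 3, and whether they fell short of its background was not tested. Without any 1 of the 6 libraries, 7 of the 14 called clusters but 3 of the 35 called unigenes kept their call, so the clusters are given first below. Calls were lost over the whole data too. Without callus replicate 2 or 3, 3.99% and 1.51% of all unigenes were called in place of 26.5%, and 24.7% and 22.3% of all clusters in place of 42.8%. A call lost in these smaller fits is thus not particular to the members. The median log2 fold change was 0.54 over the 38 and -0.05 over all. The clusters called higher were 1 of 9S-lipoxygenase, 1 of 13S-lipoxygenase, 1 of lipoxygenase 6, 1 of allene oxide synthase, 3 of TIFY proteins named as JAZ kinds, 1 of mostly TIFY 4 contigs and 1 whose counts came mostly from another protein, described with the methyltransferases. To these were added the single unigenes Unigene13768, an allene oxide synthase, and Unigene218, a 9S-lipoxygenase under 3 FPKM in every library. Those called lower were the TIFY clusters CL3795 and CL7506 and the single 9S-lipoxygenase Unigene27735. The call of Unigene218 was lost without any 1 of the 6 libraries (edgeR adjusted p = 0.0580 to 0.13).

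**Figure D1:**
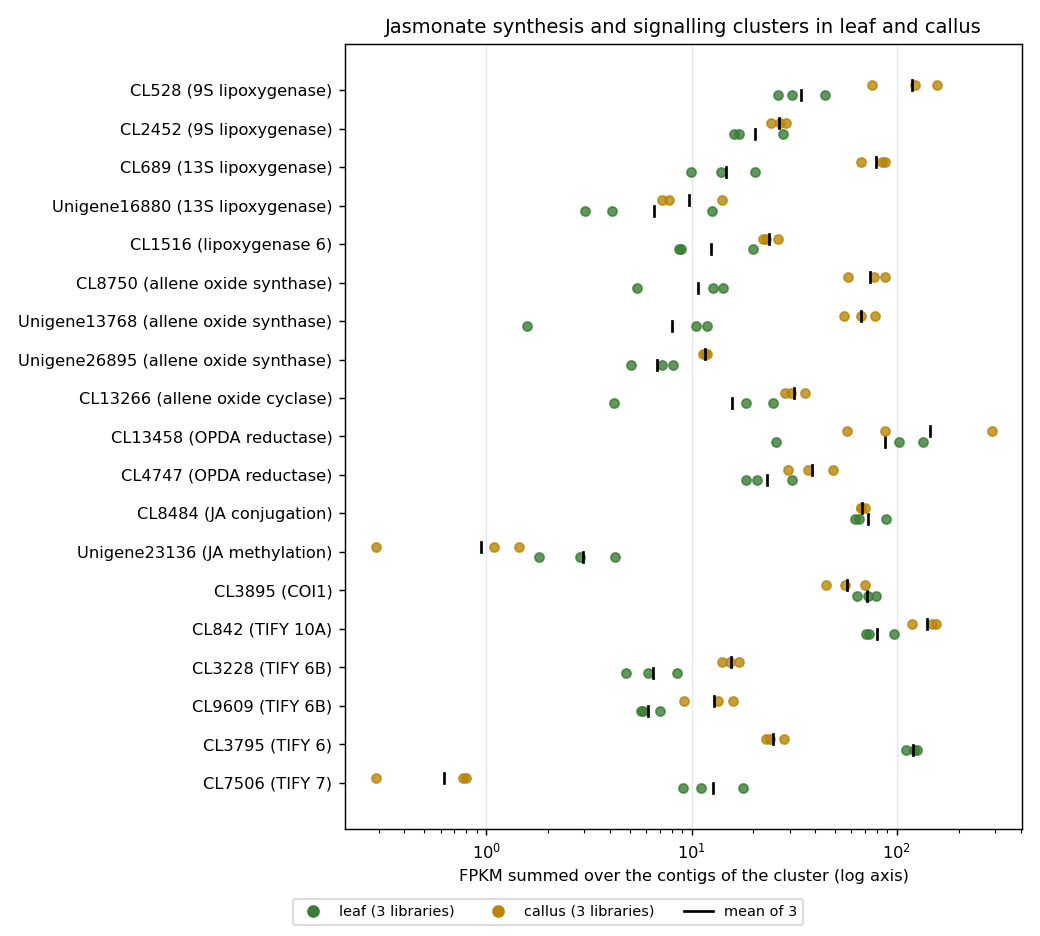
Level of 19 clusters and single unigenes of the pathway in each library, as FPKM summed over all contigs of the cluster on a log axis, with green points for leaf, ochre points for callus and a black bar at the mean of 3. The allene oxide synthases CL8750 and Unigene13768 and the 13S-lipoxygenase cluster CL689 lay higher in every callus library than in any leaf library, the TIFY clusters CL3795 and CL7506 lay lower in every callus library, and COI1 (CL3895) and the JAR-type synthetases (CL8484) overlapped.

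**Figure D2:**
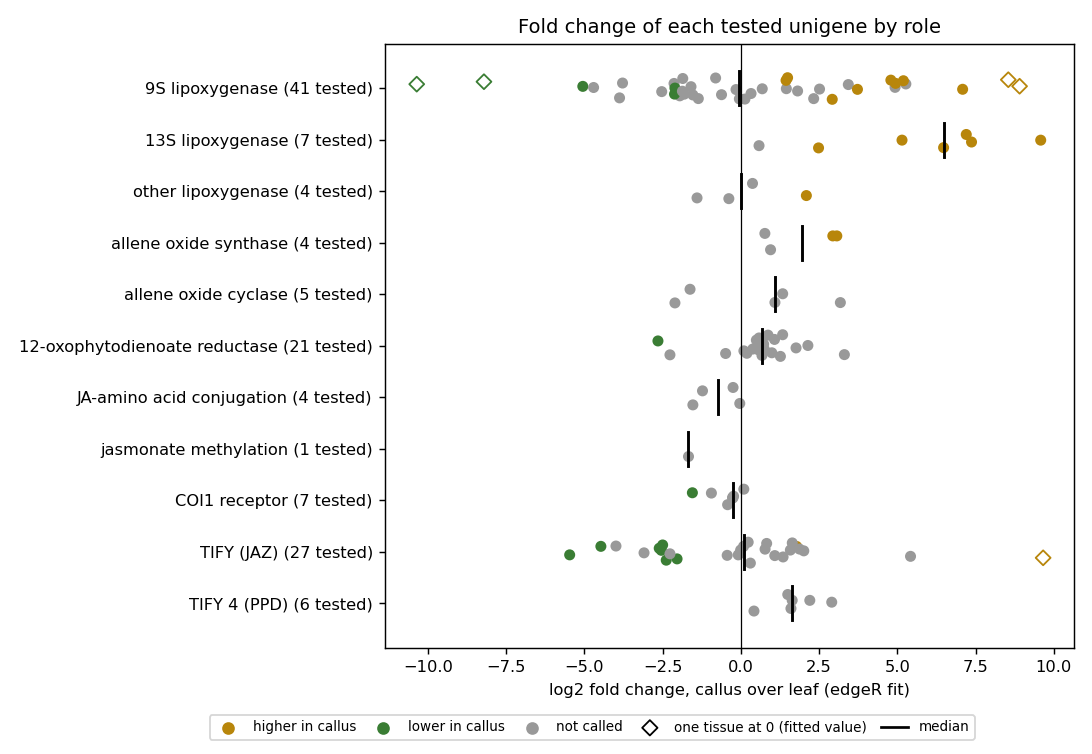
Log2 fold change of callus over leaf for each of the 127 members that passed the filter, grouped by role, with ochre for those called higher, green for those called lower, grey for the rest and a black bar at the median of the role. Open diamonds are unigenes with no count in 1 tissue, whose fitted values are not fold changes to be read as such. Of 7 tested 13S-lipoxygenase contigs, 6 were called higher, all of them contigs of the 1 cluster CL689. The 41 tested 9S-lipoxygenases spread to both sides.

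Lipoxygenases add oxygen to polyunsaturated fatty acids, and the position of the carbon, 9 or 13, decides which oxylipins can follow, with the 13S products leading to jasmonate. The summed level of each class was higher in every callus library than in any leaf library, through 1 main cluster in each, CL689 for 13S and CL528 for 9S. Of 12 clusters and single unigenes of the 9S class tested, 2 were called higher and 1 lower, with a median log2 fold change of -0.80. Over all clusters tested, 22.0% were higher and 20.8% lower. The 8 unigenes named 13S-lipoxygenase summed to 19.3, 12.4 and 26.3 FPKM in leaf replicates 1 to 3 and to 94.7, 71.8 and 92.4 FPKM in callus replicates 1 to 3. The callus mean was 86.3 ± 12.6 FPKM (SD, n = 3) against 19.3 ± 6.95 FPKM (SD, n = 3) in leaf, 4.47 times as high. The 61 unigenes named 9S-lipoxygenase summed to 93.0, 64.2 and 79.7 FPKM in leaf and to 115, 204 and 163 FPKM in callus. Their callus mean of 161 ± 44.8 FPKM (SD, n = 3) was 2.03 times the leaf mean of 79.0 ± 14.4 FPKM (SD, n = 3). Without CL528, a tally chosen after the values were seen, the other 41 unigenes of the 9S class summed to 48.4, 33.3 and 53.3 FPKM in leaf and 38.97, 47.9 and 39.9 FPKM in callus, with an overlap and a callus mean 0.939 times the leaf mean. The factors of the classes were not tested against each other.

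The level of the 9S class divided by that of the 13S class was 4.83, 5.19 and 3.04 in leaf and 1.21, 2.85 and 1.76 in callus. On the log2 scale the mean ratio was 2.08 ± 0.42 (SD, n = 3) in leaf and 0.87 ± 0.62 (SD, n = 3) in callus, a difference of -1.22. Leaf replicate 3 and callus replicate 2 lay close to each other, and the gap between the tissues rested on how the classes were summed. With summed expected counts in place of FPKM the ratio was 2.91 to 5.18 in leaf and 1.35 to 3.13 in callus, and with all contigs of the clusters 2.46 to 4.95 and 1.17 to 2.77, so that the tissues overlapped in both. With the chloroplastic lipoxygenases of no stated position counted as 13S it was 1.69 to 3.20 in leaf and 0.945 to 2.15 in callus, again with an overlap. In a second annotation, by KEGG number, all 4 lipoxygenases of no stated position carried the same number as the 8 named 13S. Of the 61 named 9S, 49 carried the KEGG number of 9S-lipoxygenase. The ratio was given no test, since it is a score over chosen members.

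**Figure D3:**
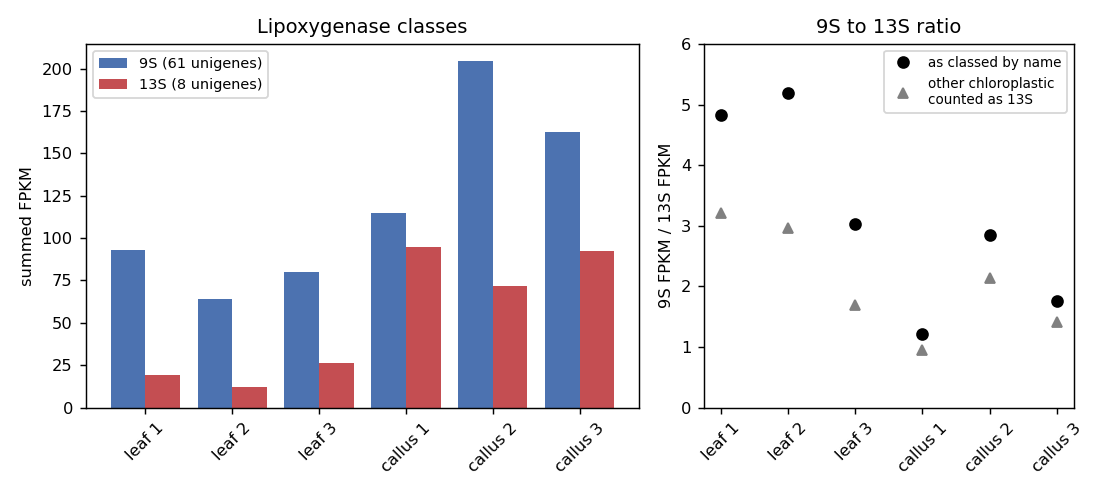
Left, FPKM summed over the 61 unigenes named 9S-lipoxygenase (blue bars) and the 8 named 13S-lipoxygenase (red bars) in each library. Right, their ratio in each library, as classed by name (black points) and with the chloroplastic lipoxygenases of no stated position counted as 13S (grey triangles); by name the ratio was 3.04 to 5.19 in leaf and 1.21 to 2.85 in callus, and with the other classing the tissues overlapped.

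The 13S class was carried by CL689, matched to linoleate 13S-lipoxygenase 2-1 of the chloroplast. The cluster held 7 contigs, of which 6 were members and 1 had L-ascorbate oxidase as SwissProt match, and it gave 52.3% to 74.6% of the 13S level in leaf and 85.1% to 91.6% in callus. The summed level of CL689 was 13.9, 9.99 and 20.4 FPKM in leaf and 84.5, 66.9 and 87.3 FPKM in callus, with no overlap. The cluster was 4.42-fold higher in callus (log2 fold change 2.14, SE 0.36, edgeR adjusted p = 0.00575), and 2.71 on the log2 scale when counts were summed over the 6 member contigs alone. Most of its level came from CL689.Contig2, at 12.2, 9.12 and 13.6 FPKM in leaf and 64.3, 57.5 and 73.5 FPKM in callus, 5.60-fold higher (log2 fold change 2.48, SE 0.23, edgeR adjusted p = 0.00467). The other 5 member contigs were at 0 to 0.10 FPKM in leaf and 1.06 to 4.27 FPKM in callus, and all of them were called higher. Among the largest rises of all members were CL689.Contig7, at 0, 0.01 and 0 FPKM in leaf and 2.51, 1.51 and 1.80 FPKM in callus (edgeR adjusted p = 0.00931), and CL689.Contig3, at 0.03, 0 and 0 FPKM in leaf and 3.63, 1.2 and 2.67 FPKM in callus (edgeR adjusted p = 0.0123). Without callus replicate 2 the adjusted p was 0.0542 for CL689.Contig7 and 0.0523 for CL689.Contig3, and without callus replicate 3 it was 0.0637 and 0.0667, whereas the other 3 lost theirs without callus replicate 2 or 3 as well (0.0548 to 0.0917), CL689.Contig4 and CL689.Contig6 also without callus replicate 1 (0.0527 and 0.0732) and CL689.Contig6 without leaf replicate 2 (0.0636). CL689 and CL689.Contig2 kept their call without any 1 of the 6 libraries.

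The second 13S gene, Unigene16880, matched to linoleate 13S-lipoxygenase 3-1, was at 4.12, 3.02 and 12.5 FPKM in leaf and 14.1, 7.2 and 7.74 FPKM in callus. The tissues overlapped through leaf replicate 3, and the difference did not pass the test (log2 fold change 0.58, SE 0.63, edgeR adjusted p = 0.518). The remaining member named 13S-lipoxygenase, Unigene74776, was the one with a soybean match and had counts in leaf replicates 1 and 2 only, at 2.91 and 0.12 FPKM. Lipoxygenase 6, a chloroplast enzyme whose name gives no position, was CL1516, with summed levels of 8.92, 8.72 and 19.8 FPKM in leaf and 26.2, 23.1 and 22.4 FPKM in callus. The tissues did not overlap, but leaf replicate 3 came close to callus. CL1516 was higher in callus (log2 fold change 1.04, SE 0.34, edgeR adjusted p = 0.0486), and its call was lost without any 1 of callus replicates 1, 2 and 3 or leaf replicates 1 and 2 (adjusted p = 0.111, 0.0837, 0.0954, 0.116 and 0.0978). Within it CL1516.Contig3 was at 1.51, 2.79 and 5.51 FPKM in leaf and 15.2, 13.3 and 13.7 FPKM in callus, 4.27-fold higher (log2 fold change 2.10, SE 0.50, edgeR adjusted p = 0.0287), a call lost without callus replicate 1, 2 or 3 or leaf replicate 2 (adjusted p = 0.0817, 0.0855, 0.0963 and 0.0778). The other contigs of the cluster were not called.

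The 9S class was spread over 61 unigenes in 3 clusters and 17 single unigenes, and 10 members were called higher and 5 lower out of 41 tested, with a median log2 fold change of -0.05. Over all unigenes tested, 14.2% were higher and 12.3% lower. The higher calls were 5 contigs of CL528, 3 of CL2452 and 2 of CL801, and the lower calls 3 of CL528 and 2 of CL2452. The most abundant cluster, CL528, held 20 contigs matched mainly to 9S-lipoxygenases 4 and 5, all of them members. Its summed level was 44.6, 31.0 and 26.4 FPKM in leaf and 75.7, 156 and 123 FPKM in callus, so callus replicate 1 was the lowest of callus and still above every leaf library. CL528 was 3.74-fold higher in callus (log2 fold change 1.90, SE 0.27, edgeR adjusted p = 0.00367), and the call held without any 1 of the 6 libraries. It made up 33.1% to 48.2% of the 9S level in leaf and 66.0% to 76.6% in callus. CL2452, with 13 contigs, was at 16.2, 17.1 and 28.0 FPKM in leaf and 24.5, 28.7 and 26.9 FPKM in callus and did not pass the test (log2 fold change 0.31, SE 0.25, edgeR adjusted p = 0.355). The cluster CL801, with 12 member contigs out of 13, was at 2.11 to 3.51 FPKM in leaf and 3.68 to 5.78 FPKM in callus (edgeR adjusted p = 0.0670).

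Within both large 9S clusters, some contigs were higher and others lower in callus. In CL528, 5 contigs were called higher and 3 lower out of 16 tested, and in CL2452, 3 higher and 2 lower out of 12. CL528.Contig9 was at 0.40, 1.17 and 0.44 FPKM in leaf and 15.0, 25.6 and 23.1 FPKM in callus, 30.8-fold higher (log2 fold change 4.95, SE 0.58, edgeR adjusted p = 0.00625, and 0.0501 without callus replicate 3). CL528.Contig5 was at 2.93, 2.48 and 1.26 FPKM in leaf and 10.3, 20.5 and 20.8 FPKM in callus, 7.58-fold higher (log2 fold change 2.92, SE 0.45, edgeR adjusted p = 0.0102, and 0.0546 and 0.0615 without callus replicate 2 or 3). CL528.Contig17 was at 0.18, 0.10 and 0.87 FPKM in leaf and 13.9, 9.16 and 8.86 FPKM in callus (log2 fold change 4.80, SE 0.90, edgeR adjusted p = 0.0155, and 0.0516, 0.0609 and 0.0672 without callus replicate 1, 2 or 3). All 3 contigs were low in every leaf library. CL528.Contig8 was at 0.31, 0.48 and 1.65 FPKM in leaf and 3.49, 19.8 and 10.3 FPKM in callus (log2 fold change 3.73, SE 0.92, edgeR adjusted p = 0.0322), and its adjusted p was 0.106, 0.0993, 0.0598 and 0.0870 without callus replicate 2 or 3 or leaf replicate 1 or 2. The most abundant contig, CL528.Contig15, was at 2.16, 0.29 and 0 FPKM in leaf and 7.91, 54.0 and 34.3 FPKM in callus. Callus replicate 1 was far below the other callus libraries there, and the difference did not pass the test (edgeR adjusted p = 0.0704, and 0.0352 without leaf replicate 1).

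On the falling side, CL528.Contig2 was at 3.83, 7.26 and 5.33 FPKM in leaf and 0.88, 1.01 and 1.97 FPKM in callus (log2 fold change -2.12, SE 0.48, edgeR adjusted p = 0.0257), named here after its values were seen. Its adjusted p was 0.0887, 0.111, 0.0662 and 0.0596 without callus replicate 1, 2 or 3 or leaf replicate 2. Some contigs had counts in 1 tissue only, and their fold changes are lower bounds against 3 counts over the 3 libraries of the other tissue. CL2452.Contig1, at 0.73, 4.80 and 2.92 FPKM in leaf and 0 in callus, was at least 159-fold lower in callus (edgeR adjusted p = 0.0170, and 0.0595 and 0.0656 without callus replicate 2 or 3). CL528.Contig1, at 0.33, 0.26 and 1.44 FPKM in leaf and 0 in callus, was at least 36.9-fold lower (edgeR adjusted p = 0.0276). Its adjusted p was 0.0643, 0.0774, 0.0826 and 0.0511 without callus replicate 1, 2 or 3 or leaf replicate 2. In the other direction, CL528.Contig18 was at 0 in leaf and 0.36, 1.69 and 1.64 FPKM in callus, at least 60.9-fold higher (edgeR adjusted p = 0.0179, and 0.0774 and 0.0834 without callus replicate 2 or 3). CL801.Contig7 was at 0 in leaf and 0.77, 1.15 and 1.06 FPKM in callus, at least 47.2-fold higher (edgeR adjusted p = 0.00974, and 0.0600 and 0.0664 without callus replicate 2 or 3). These contigs were rare in both tissues.

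In CL2452 the most abundant of the contigs called higher was CL2452.Contig12, at 4.01, 2.81 and 4.33 FPKM in leaf and 10.5, 10.4 and 9.55 FPKM in callus. It was 2.73-fold higher (log2 fold change 1.45, SE 0.27, edgeR adjusted p = 0.0147), with an adjusted p of 0.0529, 0.0672 and 0.0706 without callus replicate 1, 2 or 3. CL2452.Contig7, named after its values were seen, was at 2.34, 2.55 and 3.39 FPKM in leaf and 8.54, 8.46 and 6.43 FPKM in callus, 2.82-fold higher (edgeR adjusted p = 0.0182, and 0.0624, 0.0795 and 0.0689 without callus replicate 1, 2 or 3). Both contigs lay higher in every callus library than in any leaf library. CL2452.Contig5 was at 2.18, 0.65 and 0.41 FPKM in leaf and 0.06, 0.04 and 0 FPKM in callus (log2 fold change -5.05, SE 1.21, edgeR adjusted p = 0.0298). Its call was lost without callus replicate 1, 2 or 3 or leaf replicate 1 or 2 (adjusted p = 0.0798, 0.123, 0.0874, 0.0502 and 0.0518). The single Unigene27735 was at 0.46, 1.07 and 0.41 FPKM in leaf and 0, 0 and 0.14 FPKM in callus. It was called lower in the fit over clusters (log2 fold change -3.96, SE 1.28, edgeR adjusted p = 0.0481) and not in the fit over unigenes (adjusted p = 0.0963). That call held when callus replicate 3 was left out and was lost otherwise, with an adjusted p of 0.129, 0.144, 0.0649, 0.113 and 0.0697 without callus replicate 1 or 2 or leaf replicate 1, 2 or 3. How reads were divided among near-identical contigs is not known from the deposited values, so the opposite movements inside a cluster are less certain than its sum.

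**Figure D4:**
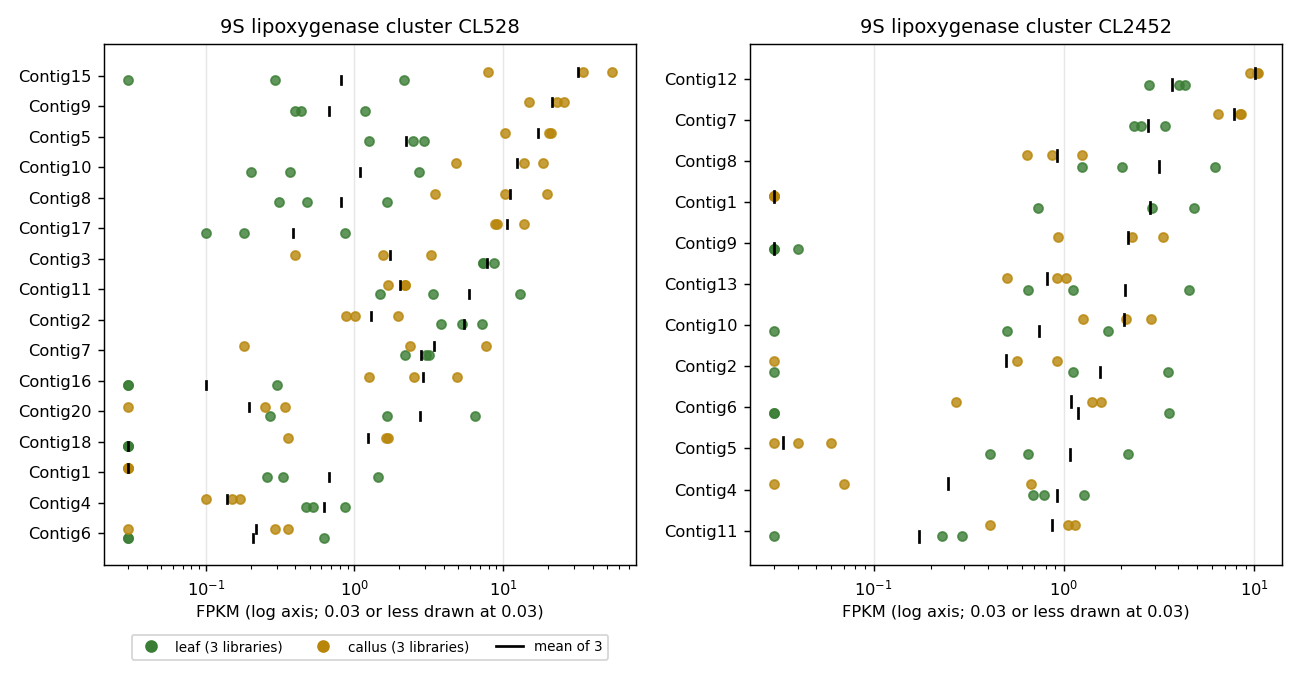
FPKM of each tested contig of the 9S-lipoxygenase clusters CL528 (left, 16 contigs) and CL2452 (right, 12 contigs) in the 3 leaf (green) and 3 callus (ochre) libraries on a log axis, with a black bar at the mean. CL528.Contig9, CL528.Contig5 and CL528.Contig17 lay higher in every callus library, and CL528.Contig2 and CL2452.Contig1 lay lower.

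Allene oxide synthase, a cytochrome P450 of the CYP74 family, turns 13-hydroperoxides of linolenic acid into the unstable allene oxide and is the first step committed to jasmonate. Of the enzyme steps it had the largest ratio of summed callus to summed leaf level. The 5 unigenes summed to 28.9, 14.5 and 35.1 FPKM in leaf and 126, 156 and 177 FPKM in callus, a mean of 153 ± 25.9 FPKM (SD, n = 3) against 26.2 ± 10.6 FPKM (SD, n = 3), 5.85 times as high. The cluster CL8750, matched to allene oxide synthase 3, was at 12.7, 5.44 and 14.2 FPKM in leaf and 58.1, 77.2 and 87.2 FPKM in callus. It was 6.35-fold higher in callus (log2 fold change 2.67, SE 0.37, edgeR adjusted p = 0.00325), and the call held without any 1 of the 6 libraries. Most of it was CL8750.Contig1, at 11.02, 4.58 and 12.2 FPKM in leaf and 54.6, 74.7 and 84.4 FPKM in callus (log2 fold change 2.94, SE 0.41, edgeR adjusted p = 0.00871, and 0.0562 without callus replicate 3). Some enzymes named allene oxide synthase 3 in other species act on 9-hydroperoxides, and the files do not tell which substrate this one takes.

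Unigene13768 matched allene oxide synthase 1 of the chloroplast in SwissProt and a P450 74A2-like protein of Platycodon itself in NR. It was at 10.5, 1.58 and 11.9 FPKM in leaf and 55.3, 67.2 and 77.9 FPKM in callus, with leaf replicate 2 well below the other leaf libraries. It was 8.39-fold higher in callus (log2 fold change 3.07, SE 0.72, edgeR adjusted p = 0.0281 in the fit over unigenes). In the fit over clusters, where it stands alone, the adjusted p was 0.0162, and 0.0554 without callus replicate 3. In the fit over unigenes it was 0.0686, 0.0855, 0.0974 and 0.0533 without callus replicate 1, 2 or 3 or leaf replicate 1. Another gene, Unigene26895, close to a P450 74A3-like protein of Platycodon, was at 5.06, 7.15 and 8.08 FPKM in leaf and 11.9, 11.7 and 11.3 FPKM in callus. Its tissues did not overlap, but the difference did not pass the test (log2 fold change 0.77, SE 0.29, edgeR adjusted p = 0.0963).

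Allene oxide cyclase fixes the stereochemistry of OPDA, the first cyclic compound of the pathway. None of the 12 unigenes was called. Of the 5 tested, 2 had an unadjusted p under 0.05 in edgeR, as had 27668 of all 66307 tested. CL13266.Contig2 of these 2 was higher in callus and CL9965.Contig2 lower. CL9965.Contig2, named after its values were seen, was at 2.03, 0.88 and 2.01 FPKM in leaf and 0.69, 0.40 and 0.47 FPKM in callus (log2 fold change -1.62, SE 0.55, edgeR adjusted p = 0.0747). The 12 summed to 27.7, 6.42 and 22.2 FPKM in leaf and to 38.8, 33.0 and 37.7 FPKM in callus. The main cluster, CL13266, was at 24.9, 4.19 and 18.3 FPKM in leaf and 35.7, 28.5 and 30.5 FPKM in callus, higher in every callus library, but with a leaf spread that left it short of the threshold (log2 fold change 1.07, SE 0.55, edgeR adjusted p = 0.160). Its contigs differed between leaf libraries. CL13266.Contig1 was at 0.67, 3.60 and 14.6 FPKM in leaf and 16.7, 12.5 and 10.99 FPKM in callus (edgeR adjusted p = 0.450). CL13266.Contig2, named after its values were seen, was at 3.57, 0.16 and 1.70 FPKM in leaf and 15.6, 14.7 and 18.2 FPKM in callus and missed the threshold (log2 fold change 3.18, SE 0.95, edgeR adjusted p = 0.0550). In leaf replicate 1 the cluster instead held CL13266.Contig6 at 12.9 FPKM and CL13266.Contig5, the contig with a soybean match, at 7.55 FPKM, both also named after their values were seen.

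OPDA reductases reduce the ring of OPDA, a step that reductase 3 carries out in the peroxisome of Arabidopsis, while reductases 1 and 2 act mostly on other substrates there. All 27 members were named for reductase 1 or 2. They summed to 59.0, 125 and 151 FPKM in leaf and 344, 88.3 and 126 FPKM in callus, so callus replicate 1 stood far above the other callus libraries, which overlapped with leaf. No member was higher and 1 was lower out of 21 tested. The cluster CL13458, 13 of whose 16 contigs were members, was at 25.8, 102 and 133 FPKM in leaf and 289, 57.4 and 87.9 FPKM in callus (log2 fold change 0.69, SE 0.82, edgeR adjusted p = 0.523), and without callus replicate 1 its log2 fold change was -0.33. Its most abundant contig, CL13458.Contig5, was at 4.64, 36.1 and 20.2 FPKM in leaf and 94.8, 19.4 and 31.4 FPKM in callus (edgeR adjusted p = 0.342). The second cluster, CL4747, was at 31.0, 20.9 and 18.5 FPKM in leaf and 49.1, 29.5 and 36.8 FPKM in callus and did not pass the test either (log2 fold change 0.66, SE 0.30, edgeR adjusted p = 0.120). The member called lower was CL13458.Contig1, under 3 FPKM in every library, whose NR match was a retrovirus-related Pol polyprotein (edgeR adjusted p = 0.0437). Its call was lost without callus replicate 1, 2 or 3 or leaf replicate 2 or 3 (adjusted p = 0.108, 0.163, 0.178, 0.0570 and 0.0791).

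No cluster of the conjugation and perception steps passed the test. JAR-type synthetases join jasmonic acid to isoleucine, which gives the active hormone. Their cluster CL8484 was at 62.6, 65.6 and 88.9 FPKM in leaf and 67.0, 69.8 and 67.0 FPKM in callus, with an overlap (log2 fold change -0.20, SE 0.18, edgeR adjusted p = 0.409). Most of it was CL8484.Contig1, matched to JAR6 in SwissProt but to the auxin-conjugating GH3.5 in NR, at 53.7, 57.3 and 75.4 FPKM in leaf and 60.1, 63.1 and 60.2 FPKM in callus (log2 fold change -0.03, SE 0.20, edgeR adjusted p = 0.917). COI1, the F-box receptor of the hormone, was the cluster CL3895 of 7 contigs, at 72.4, 79.0 and 63.8 FPKM in leaf and 45.4, 70.1 and 55.9 FPKM in callus. Callus replicate 2 lay inside the leaf range, and the difference did not pass the test (log2 fold change -0.45, SE 0.18, edgeR adjusted p = 0.0940). Its most abundant contig, CL3895.Contig3, was at 30.3, 31.3 and 29.7 FPKM in leaf and 22.3, 30.0 and 24.6 FPKM in callus (edgeR adjusted p = 0.335). The 1 COI1 contig called was CL3895.Contig1, at 2.16 to 3.85 FPKM in leaf and 0.98 to 1.07 FPKM in callus (log2 fold change -1.55, SE 0.39, edgeR adjusted p = 0.0338). It was lost without callus replicate 1, 2 or 3 or leaf replicate 1 or 2 (adjusted p = 0.0928, 0.136, 0.1399, 0.0571 and 0.0649).

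Jasmonate O-methyltransferase makes the volatile methyl jasmonate. Unigene23136, the more abundant of 2 members, was at 1.80, 2.87 and 4.24 FPKM in leaf and 0.29, 1.09 and 1.45 FPKM in callus, lower in every callus library without passing the test (log2 fold change -1.68, SE 0.71, edgeR adjusted p = 0.13). The other belonged to CL6870, which was 14.2-fold higher in callus (log2 fold change 3.83, SE 0.56, edgeR adjusted p = 0.00382), at 1.75, 2.25 and 0.90 FPKM in leaf and 37.8, 13.3 and 24.4 FPKM in callus. Only 3.28% of that level came from the member contig. The other contigs of CL6870 matched methyltransferases of other substrates, mainly salicylate, so nearly all of this rise was in other methyltransferases.

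JAZ proteins hold back jasmonate responses until the receptor has them degraded, and their genes are induced by the hormone in many plants. The 40 members named as these kinds summed to 223, 208 and 255 FPKM in leaf and 215, 217 and 188 FPKM in callus, a mean of 229 ± 24.1 FPKM (SD, n = 3) against 207 ± 16.2 FPKM (SD, n = 3), with an overlap. Beneath this sum the clusters moved apart. Of 7 clusters tested, 3 were higher and 2 lower in callus, and of 27 contigs tested, 2 were higher and 7 lower. Over all clusters tested the shares were 22.0% higher and 20.8% lower, and over all unigenes tested 14.2% and 12.3%. The lower contigs were 6 of CL3795 and 1 of CL7506, so they repeat the result of these clusters. The counts of clusters and contigs go by SwissProt name. They take in CL9609, whose NR match is not a JAZ, and CL1996, mostly a ribosomal protein. Without both, a tally chosen after the values were seen, 2 of 5 clusters were higher and 2 lower, and 1 of 24 contigs was higher and 7 lower. The 24 contigs still take in CL2378.Contig1, named TIFY 10b in SwissProt but TIFY 4B-like in NR, which was not called.

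The clusters that fell were matched to TIFY 6 and TIFY 7, which are JAZ3, JAZ4 and JAZ9 in Arabidopsis. CL3795, 14 of whose 15 contigs were members, was at 125, 111 and 122 FPKM in leaf and 24.0, 23.0 and 28.1 FPKM in callus. It was 5.09-fold lower in callus (log2 fold change -2.35, SE 0.14, edgeR adjusted p = 0.000501), the smallest adjusted p of any member cluster, and its call held without any 1 of the 6 libraries. Of its 8 contigs tested, 6 were called lower and none higher. CL3795.Contig12 was at 55.1, 51.5 and 44.98 FPKM in leaf and 9.66, 7.82 and 8.56 FPKM in callus, 5.81-fold lower (log2 fold change -2.54, SE 0.23, edgeR adjusted p = 0.00467). CL3795.Contig1 was at 31.6, 29.8 and 47.6 FPKM in leaf and 7.24, 8.10 and 11.4 FPKM in callus, 4.10-fold lower (log2 fold change -2.04, SE 0.31, edgeR adjusted p = 0.00998, and 0.0593 and 0.0553 without callus replicate 2 or 3). CL3795.Contig8, whose NR match was JAZ3 of a grapevine, was at 16.2, 13.6 and 17.2 FPKM in leaf and 1.85, 2.78 and 3.78 FPKM in callus (log2 fold change -2.50, SE 0.32, edgeR adjusted p = 0.00737, and 0.0511 without callus replicate 2). Every leaf library was above every callus library for these contigs. CL3795.Contig14 was at 6.51, 3.84 and 0.82 FPKM in leaf and 0, 0.25 and 0 FPKM in callus (edgeR adjusted p = 0.0453). Its call was lost without callus replicate 1, 2 or 3 or leaf replicate 1 or 2 (adjusted p = 0.123, 0.0701, 0.151, 0.0791 and 0.0860).

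CL7506, of 4 contigs with 2 members, was at 11.2, 9.10 and 17.8 FPKM in leaf and 0.29, 0.80 and 0.77 FPKM in callus. It was 22.0-fold lower in callus (log2 fold change -4.46, SE 0.47, edgeR adjusted p = 0.00151), the largest fall of any member cluster, and the call held without any 1 of the 6 libraries. Most of it was CL7506.Contig3, matched to TIFY 7, at 9.05, 7.59 and 12.8 FPKM in leaf and 0.23, 0.41 and 0.68 FPKM in callus (log2 fold change -4.47, SE 0.51, edgeR adjusted p = 0.00612).

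The clusters that rose were led by CL842, matched to TIFY 10A, which is JAZ1 in Arabidopsis. Its 11 contigs summed to 70.6, 73.1 and 97.0 FPKM in leaf and 155, 148 and 119 FPKM in callus, with no overlap. CL842 was 1.71-fold higher in callus (log2 fold change 0.77, SE 0.20, edgeR adjusted p = 0.0232), and the adjusted p was 0.0528, 0.0597, 0.0599 and 0.0654 without callus replicate 1 or 2 or leaf replicate 1 or 2. Its most abundant contig, CL842.Contig9, was at 4.45, 36.4 and 55.5 FPKM in leaf and 74.3, 74.8 and 57.8 FPKM in callus (edgeR adjusted p = 0.355), with leaf replicate 1 far below the others. The 1 contig called was CL842.Contig2, at 0 in leaf and 4.38, 3.56 and 2.42 FPKM in callus, at least 102-fold higher (edgeR adjusted p = 0.00931, and 0.0575 and 0.0599 without callus replicate 2 or 3). CL842.Contig8 was at 27.8 to 42.2 FPKM in leaf and 24.9 to 46.0 FPKM in callus (edgeR adjusted p = 0.992), so the contigs of this cluster did not all differ alike.

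**Figure D5:**
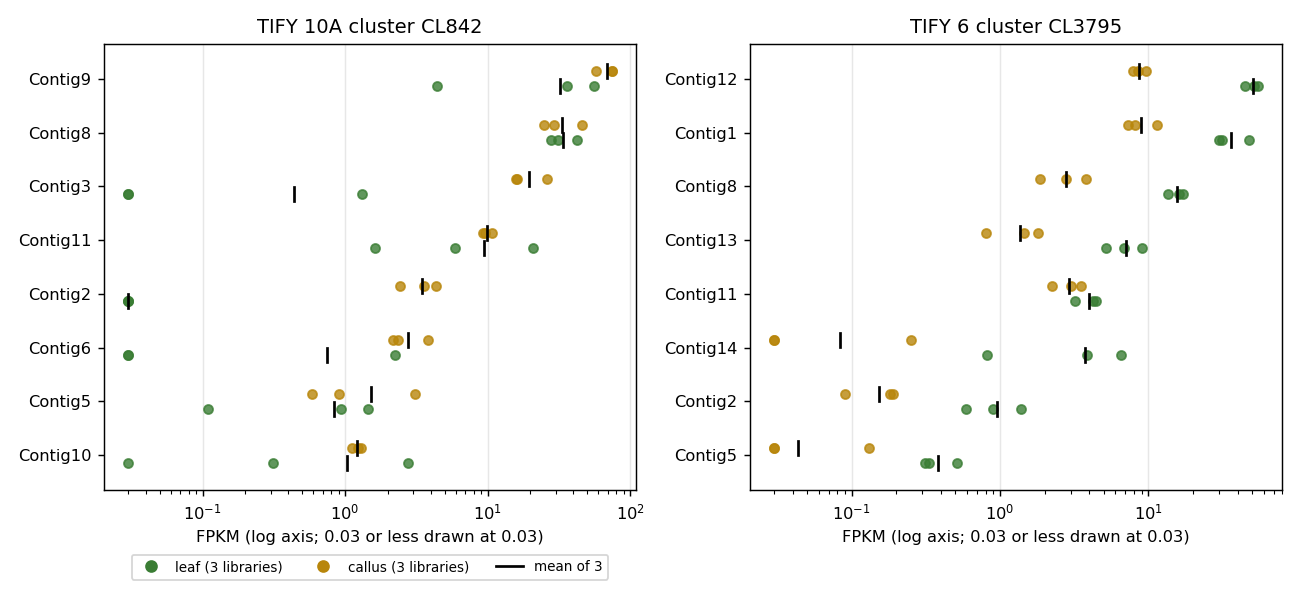
FPKM of each tested contig of the TIFY 10A cluster CL842 (left, 8 contigs) and the TIFY 6 cluster CL3795 (right, 8 contigs) in the 3 leaf (green) and 3 callus (ochre) libraries on a log axis, with a black bar at the mean. CL3795.Contig12, CL3795.Contig1 and CL3795.Contig8 lay lower in every callus library than in any leaf library, whereas CL842.Contig8 overlapped between the tissues.

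CL3228, matched to TIFY 6B in SwissProt and to a JAZ protein of tobacco in NR, was at 6.12, 4.82 and 8.45 FPKM in leaf and 17.0, 14.1 and 15.4 FPKM in callus. It was 2.36-fold higher (log2 fold change 1.24, SE 0.30, edgeR adjusted p = 0.0184, and 0.0554 and 0.0582 without callus replicate 1 or 3). CL9609, matched to TIFY 6B in SwissProt but to a TIFY 8-like protein in NR, a kind that is not a JAZ, was at 6.99, 5.70 and 5.78 FPKM in leaf and 9.19, 13.5 and 15.99 FPKM in callus. It was 2.00-fold higher (log2 fold change 1.00, SE 0.24, edgeR adjusted p = 0.0194, and 0.0643 and 0.0792 without callus replicate 2 or 3). A member matched to TIFY 9, CL1996.Contig8, was at 0.53 to 1.31 FPKM in leaf and 2.44 to 4.12 FPKM in callus (edgeR adjusted p = 0.0379, and 0.0773, 0.138, 0.123 and 0.0776 without callus replicate 1, 2 or 3 or leaf replicate 2), while its cluster CL1996, of which it made up 4.77%, was otherwise ribosomal protein L12. TIFY 4 proteins act on leaf growth rather than as JAZ repressors in Arabidopsis. Their cluster CL2378, in which 12 of 18 contigs were members, 10 named TIFY 4 and 2 named TIFY 10b, was at 5.17, 5.96 and 9.67 FPKM in leaf and 13.1, 17.1 and 15.4 FPKM in callus, 2.42-fold higher (log2 fold change 1.28, SE 0.19, edgeR adjusted p = 0.00378), and held without any 1 of the 6 libraries. The most abundant member contig was CL2378.Contig1, named TIFY 10b in SwissProt but TIFY 4B-like in NR, at 0.86, 2.39 and 3.06 FPKM in leaf and 5.8, 7.9 and 5.59 FPKM in callus, which did not pass the test alone (log2 fold change 1.58, SE 0.55, edgeR adjusted p = 0.0817) and was named after its values were seen. None of the TIFY 4 contigs was called alone, with 2 of 6 at an unadjusted edgeR p under 0.05, as were 27668 of all 66307 unigenes tested. The most abundant of them, CL2378.Contig2, was at 1.81, 0.64 and 0.32 FPKM in leaf and 1.41, 3.35 and 3.95 FPKM in callus (edgeR adjusted p = 0.162).

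The other genes of the pathway were described by a list of 299 unigenes in 17 lines, of which 190 were tested. The test called 32 higher and 25 lower, with a median log2 fold change of 0.05, against the background of 14.2% and 12.3%. Upstream of the lipoxygenases, plastid phospholipases A1 of the DAD1 type release the fatty acid, and 4 were higher and 8 lower of 24 tested. The 46 of them summed to 54.0, 68.2 and 52.2 FPKM in leaf and 20.1, 34.5 and 31.3 FPKM in callus, while the most abundant, CL2674.Contig1, was at 3.06 to 5.31 FPKM in leaf and 4.49 to 11.2 FPKM in callus (edgeR adjusted p = 0.125). Omega-3 fatty acid desaturases, which make linolenic acid, were 2 higher and 2 lower of 11, and the most abundant, CL4260.Contig2, overlapped at 11.5 to 18.5 and 13.02 to 14.3 FPKM (edgeR adjusted p = 0.538). In the peroxisome, acyl-coenzyme A oxidases were 2 higher and none lower of 18, multifunctional proteins 4 higher and 2 lower of 22, and 3-ketoacyl-CoA thiolases 1 higher and none lower of 6. Acyl-coenzyme A oxidase 4 (Unigene27091) was at 12.8, 27.0 and 29.5 FPKM in leaf and 60.2, 81.2 and 68.9 FPKM in callus, 2.99-fold higher (log2 fold change 1.58, SE 0.36, edgeR adjusted p = 0.0268). Acyl-coenzyme A oxidase 2 (CL1748.Contig5) was at 3.15, 2.71 and 6.11 FPKM in leaf and 22.9, 17.5 and 14.7 FPKM in callus (edgeR adjusted p = 0.0216). The multifunctional protein AIM1 (CL13151.Contig1) was at 13.5, 17.9 and 12.97 FPKM in leaf and 28.5, 33.5 and 34.7 FPKM in callus (edgeR adjusted p = 0.0181), and its second contig CL13151.Contig2 was 4.35-fold higher (edgeR adjusted p = 0.0218). Without callus replicate 2 or 3 the adjusted p of these β-oxidation genes was 0.0958 and 0.0952 for Unigene27091, 0.0768 and 0.0746 for CL1748.Contig5, 0.0721 and 0.0852 for CL13151.Contig1 and 0.0710 and 0.0835 for CL13151.Contig2. Without callus replicate 1 it was 0.0657, 0.0712 and 0.0652 for Unigene27091, CL1748.Contig5 and CL13151.Contig2, and without leaf replicate 3 it was 0.0515 for CL13151.Contig2. The transporter of fatty acids into the peroxisome, ABC transporter D family member 1 (CL5923.Contig1), was at 10.2 to 16.4 FPKM in leaf and 21.5 to 22.6 FPKM in callus (edgeR adjusted p = 0.0565, and 0.0325 without leaf replicate 3), and the thiolase CL9621.Contig1 at 51.2 to 62.2 and 73.9 to 119 FPKM (edgeR adjusted p = 0.139).

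4-coumarate--CoA ligase-like 5, which in Arabidopsis activates OPDA-derived precursors for β-oxidation, had 2 contigs higher and 1 lower of 8 tested. Unigene38667 was at 0.05, 0 and 0 FPKM in leaf and 7.92, 13.5 and 10.9 FPKM in callus (edgeR adjusted p = 0.00622, and 0.0513 without callus replicate 3). Unigene37102 went the other way, at 12.2, 13.3 and 8.59 FPKM in leaf and 2.10, 0.54 and 0.31 FPKM in callus, 11.2-fold lower (edgeR adjusted p = 0.0289, and 0.109, 0.0877 and 0.0647 without callus replicate 2 or 3 or leaf replicate 2).

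MYC2, the transcription factor that JAZ proteins hold back, had 2 abundant unigenes. Unigene1096 was at 38.3, 8.82 and 15.9 FPKM in leaf and 0.90, 0.53 and 0.39 FPKM in callus, with leaf replicate 1 the highest and every callus library under 1 FPKM. It was 33.7-fold lower in callus (log2 fold change -5.07, SE 0.73, edgeR adjusted p = 0.00911, and 0.0559 and 0.0602 without callus replicate 2 or 3). Unigene7794 was at 37.3, 39.8 and 30.8 FPKM in leaf and 27.0, 46.5 and 37.2 FPKM in callus, with an overlap (log2 fold change 0.01, SE 0.24, edgeR adjusted p = 0.972). In all, 2 of 6 unigenes of MYC2 to MYC4 were lower and none higher. The bHLH13 repressor Unigene26843 (edgeR adjusted p = 0.188), the adaptor NINJA with CL7094.Contig4 as its most abundant contig (edgeR adjusted p = 0.177) and the corepressor TOPLESS with CL6045.Contig1 (edgeR adjusted p = 0.568) did not pass the test. Topless-related protein 4 had CL4137.Contig1 at 5.22, 1.69 and 13.95 FPKM in leaf and 50.6, 45.1 and 42.4 FPKM in callus (edgeR adjusted p = 0.0415), and CL4137.Contig2 was 4.73-fold higher (edgeR adjusted p = 0.0237). Without 1 of callus replicates 1, 2 and 3 or leaf replicate 1 the adjusted p was 0.102, 0.108, 0.114 and 0.0967 for CL4137.Contig1 and 0.0719, 0.0803, 0.0674 and 0.0547 for CL4137.Contig2, which was also at 0.0580 without leaf replicate 2.

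Mediator subunit 25, the bridge between MYC2 and RNA polymerase II, had 5 of 21 tested contigs higher and none lower. CL2387.Contig13 was at 4.68, 6.25 and 5.63 FPKM in leaf and 20.6, 18.8 and 19.9 FPKM in callus, 3.54-fold higher (log2 fold change 1.83, SE 0.22, edgeR adjusted p = 0.00678, and 0.0530 without callus replicate 3). CL4728.Contig2 was at 0, 0.13 and 0.10 FPKM in leaf and 8.20, 14.6 and 12.2 FPKM in callus (edgeR adjusted p = 0.0111, and 0.0584 and 0.0644 without callus replicate 2 or 3). CL934.Contig1, the most abundant, was at 8.69 to 18.3 FPKM in leaf and 25.1 to 27.4 FPKM in callus (log2 fold change 1.16, SE 0.33), at the threshold itself, and without 1 library other than leaf replicate 1 its edgeR adjusted p was 0.0920 to 0.145.

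Of the genes that turn the hormone over, none of the 13 tested amidohydrolases of the ILR1 type was higher and 1 was lower, and the cytochromes P450 94B and 94C, which oxidise jasmonoyl-isoleucine, were 1 higher and 1 lower of 4. Their most abundant unigenes, CL11811.Contig1 (edgeR adjusted p = 0.108) and CL10270.Contig1 (edgeR adjusted p = 0.933), did not pass the test. Among genes that jasmonate induces in other plants, proteinase inhibitors were 5 higher and 6 lower of 21 tested. The cysteine proteinase inhibitor B contig CL2091.Contig1 was at 68.0, 19.7 and 96.3 FPKM in leaf and 349, 571 and 357 FPKM in callus, 6.96-fold higher (log2 fold change 2.80, SE 0.59, edgeR adjusted p = 0.0206, and 0.0553, 0.0752 and 0.0722 without callus replicate 1, 2 or 3). CL311.Contig15 was at 0, 0.36 and 1.18 FPKM in leaf and 90.5, 37.2 and 46.4 FPKM in callus (edgeR adjusted p = 0.0138, and 0.0503, 0.0585 and 0.0669 without callus replicate 1, 2 or 3). Unigene24116 was at 0, 0.14 and 1.45 FPKM in leaf and 28.2, 25.5 and 11.8 FPKM in callus (edgeR adjusted p = 0.0363, and 0.0992, 0.112, 0.0990 and 0.0833 without callus replicate 1, 2 or 3 or leaf replicate 2). CL311.Contig15 and Unigene24116 were under 2 FPKM in every leaf library, whereas CL2091.Contig1 was abundant in leaf too.

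The cluster of cysteine proteinase inhibitor 12 held contigs of both directions. CL3028.Contig1 was at 23.9, 38.6 and 10.2 FPKM in leaf and 0.43, 0.33 and 0.24 FPKM in callus, 74.8-fold lower (log2 fold change -6.23, SE 0.70, edgeR adjusted p = 0.00595, and 0.0516 without callus replicate 3). CL3028.Contig3 was 7.96-fold lower (edgeR adjusted p = 0.0231, and 0.0990, 0.0963 and 0.0532 without callus replicate 2 or 3 or leaf replicate 2). CL3028.Contig8 was 2.78-fold higher (edgeR adjusted p = 0.0272, and 0.0794, 0.0735, 0.0922 and 0.0537 without callus replicate 1, 2 or 3 or leaf replicate 2). Vegetative storage protein and polyphenol oxidase, known jasmonate-induced genes of Arabidopsis and tomato, were each 1 higher of 2 tested. Their most abundant unigenes did not pass the test, at an edgeR adjusted p of 0.0803 for CL8345.Contig2 (0.0474 without callus replicate 1) and 0.272 for Unigene20214 (0.0494 without leaf replicate 3).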

How the data were processed

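Expected counts and FPKM of 6 libraries, 3 of leaf and 3 of callus, were used. The authors deposited expected counts, which RSEM estimated from the read pairs assigned to each unigene and which are not normalized, and FPKM, which scale these by the effective length of the unigene and by the total of the library. Per the submitters' processing notes the tools were Bowtie2 2.2.5, RSEM 1.2.8 and DESeq2, and the authors assembled the reads of all libraries into unigenes with Trinity and joined contigs into clusters with TGICL. The authors' own fold changes and p-values were not used.

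Expected counts were rounded to whole numbers and tested with edgeR 4.0.16 in R 4.3.3, after filtering by filterByExpr and TMM scaling, by quasi-likelihood F tests, with Benjamini-Hochberg adjustment over all unigenes or clusters tested. A call is an adjusted p of 0.05 or less, because the study's thresholds of 0.001 and 2-fold were known to call 0 unigenes in edgeR. That does not hold for DESeq2, the tool the study names. There the DESeq2 adjusted p was 7.7e-16 for CL3795.Contig12 and 3.5e-14 for CL689.Contig2. The members, lists and tests were chosen with earlier results of these data known. Standard errors (SE) are on the log2 scale and were worked back from the test, as the absolute log2 fold change over the square root of F. A fold change against a tissue at 0 is a lower bound against 3 counts over its 3 libraries.

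The text names, for each role, the most abundant member and member cluster, every called member whose mean reached 10 FPKM in 1 of the tissues, and the 5 largest rises and 5 largest falls. Of the other pathway genes it names the most abundant unigene of each line and those called with at least 10 FPKM. Alternatives were DESeq2 1.42.0, its size factors, no filter, limma 3.58.1 on log2(FPKM + 1) and log2(FPKM + 0.01) of unigenes above 0 in at least 3 libraries, the stricter thresholds, leaving out peanut-matching unigenes or keeping them as members, sums over member contigs, other sums for the 9S to 13S ratio, and each library left out. The tests were tried on simulated data. Python 3.11.15 with pandas 2.3.3, numpy 2.4.6 and matplotlib 3.10.9 served for summaries and plots.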

Additional observations from a re-analysis of the deposited data

Results flagged for a closer look

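The 15 unigenes that had a pathway name but a peanut match, and were therefore left out, had summed expected counts of 123 in leaf replicate 1, 5 in leaf replicate 2 and 0 in the other libraries. They were looked at because they lie outside the comparisons and carry counts in leaf replicates 1 and 2 but in no callus library. Keeping them as members changed no count of called members, and their origin was not tested. No other result was tested for a library standing apart, since each tissue has 3 libraries.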

How the results depend on the processing

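Against 21 members called higher and 14 lower, DESeq2 called 37 higher and 18 lower, limma on log2(FPKM + 1) called 32 higher, and edgeR without the filter 5 lower, each a count over all members. Over all unigenes tested, DESeq2 called 15.6% higher and 16.1% lower. In both directions together, limma on log2(FPKM + 1) called 24.6% of all and edgeR without the filter 7.16%, in place of 26.5%. At an adjusted p of 0.001 with 2-fold, edgeR called 0 members in either direction, as it called 0 of all unigenes, and of the clusters 0 higher and 1 lower. An unadjusted edgeR p under 0.05 was found for 56 of 127 members tested and 27668 of all 66307 unigenes tested, shares near each other. With 1 library left out, members called ranged from 1 to 26 higher and from 3 to 13 lower. The lowest counts came without callus replicate 3, where 1.51% of all unigenes were called in place of 26.5%, in a fit with fewer samples. Clusters ranged from 6 to 15 higher and from 2 to 3 lower. The share of all clusters called was lowest without callus replicate 3, at 22.3% in place of 42.8%. DESeq2 called 14 member clusters higher and 8 lower in place of 11 and 3, where it called 8920 and 8516 of all clusters in place of 7231 and 6852. The log2 ratio of 9S to 13S in leaf was 1.33 in place of 2.08 with the chloroplastic lipoxygenases of no stated position counted as 13S, and the cause of the other changes was not tested. With 1 library left out, the mean log2 ratio ranged from 1.94 to 2.32 in leaf and from 0.55 to 1.16 in callus. With sums over member contigs only, CL1516, Unigene218 and Unigene27735 lost their call (adjusted p = 0.0641, 0.0605 and 0.0962), and CL6870, whose member contig did not pass the filter, was not tested. The 9S level of callus over leaf, on the log2 scale, was -0.09 without CL528 in place of 1.02, chosen after seeing the data. No named fold change changed direction with a call. Scaling by DESeq2's size factors moved the median log2 fold change of all unigenes from -0.10 to -0.07. No paired analysis was possible because the labels number the libraries in 1 series across both tissues, and the replicate numbers used here only name them. Depth and 3 libraries a tissue limit rare unigenes.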
